A study of Mus musculus with 16 samples.

Results

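*Gzma*, *Nkg7*, *Klrk1* and *Cd244*, genes known from cytotoxic lymphocytes, were followed across 4 treatment groups of mice, each gene taken by its symbol, 4 of the 734 genes in a table of NanoString nCounter values for innate immune genes. The assay counts mRNA molecules with colour-coded probes and no amplification step. It was run on splenic CD11b+ cells of 16 wild-type C57BL/6 mice (B6, C57BL/6J in the methods), with 4 separate mice in each group, to ask how erythropoietin (EPO) changes these cells during a response to foreign tissue. Naive mice were left untreated. Mice of the allo group were given 20000000 BALB/c splenocytes and nothing else. Mice of the CTLA4-Ig group were given the same cells and 150 μg of CTLA4-Ig i.p. once on day 2; this fusion protein keeps CD28 on T cells from its ligands. Mice of the CTLA4-Ig/EPO group were given the cells, the same CTLA4-Ig and recombinant EPO, at 5000 U/kg i.p. every day. Spleens were taken on day 7 and CD11b+ cells were obtained by positive selection, a step that enriches these cells and leaves others behind to an extent not given. The injected cells are described in the labels as depleted of T cells, and their route is i.p. in the labels and i.v. in the study's results. The study's results also describe the profiled cells as CD11c-, a gate that its methods and the labels do not name. Ages were not given in the sources used here. The labels contradict themselves on which letter code stands for naive and which for allo mice. In 1 protocol text they are swapped relative to titles and treatments, so all comparisons with naive or allo mice rest on the titles. The study reports, for some of its depicted genes, a change with injected cells against naive mice and no effect of added CTLA4-Ig. With the groups as titled, limma called 516 of 734 genes between allo and naive mice and 0 between CTLA4-Ig and allo mice.

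Cytotoxic lymphocytes, that is NK cells and CD8+ T cells, kill by releasing granules onto a target cell. *Gzma* encodes granzyme A, a serine protease of these granules, and *Nkg7* a granule membrane protein needed for their efficient release. *Klrk1* encodes NKG2D, an activating receptor for stress-induced ligands on target cells, and *Cd244* encodes 2B4, a receptor of the SLAM family that binds CD48 and is also found on several myeloid cells. All 4 genes were well above the floor of the assay. Their recovered molecule counts lay between 673 and 10169 per mouse, out of totals between 562760 and 912328, so that counting error was at most 0.06 on the log2 scale. The SD between mice of a group lay between 0.05 and 0.49.

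Because the windows around their start sites are the sequence features that can be set beside the expression values, 300 bases of each promoter are given, from 250 bases before an annotated start to 50 bases after it (RefSeq, GRCm38.p6, 5′ to 3′ on the strand of the gene). *Cd244*, as it is named among the expression values, was matched to RefSeq under its current symbol *Cd244a*, and all 4 genes were matched. Capitals mark matches on either strand to 3 motifs, TGTGGT of RUNX factors, AGGTGT of T-box factors and AGGAAG of ETS factors, families known for their part in lymphocyte gene expression. The windows were chr13:113100932-113101231 (minus strand) for *Gzma*, chr7:43436888-43437187 (plus strand) for *Nkg7*, chr6:129623815-129624114 (minus strand) for *Klrk1* and chr1:171558943-171559242 (plus strand) for *Cd244*.
Gzma: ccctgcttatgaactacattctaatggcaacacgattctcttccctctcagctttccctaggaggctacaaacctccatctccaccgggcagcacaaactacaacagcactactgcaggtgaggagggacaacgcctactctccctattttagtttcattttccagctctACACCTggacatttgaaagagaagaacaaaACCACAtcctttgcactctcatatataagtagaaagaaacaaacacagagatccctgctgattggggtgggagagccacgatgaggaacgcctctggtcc
Nkg7: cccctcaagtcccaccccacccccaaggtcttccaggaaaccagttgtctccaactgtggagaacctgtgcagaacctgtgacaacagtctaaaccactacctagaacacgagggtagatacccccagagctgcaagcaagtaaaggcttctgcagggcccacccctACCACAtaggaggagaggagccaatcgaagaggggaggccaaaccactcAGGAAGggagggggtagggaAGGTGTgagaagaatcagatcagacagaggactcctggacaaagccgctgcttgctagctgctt
Klrk1: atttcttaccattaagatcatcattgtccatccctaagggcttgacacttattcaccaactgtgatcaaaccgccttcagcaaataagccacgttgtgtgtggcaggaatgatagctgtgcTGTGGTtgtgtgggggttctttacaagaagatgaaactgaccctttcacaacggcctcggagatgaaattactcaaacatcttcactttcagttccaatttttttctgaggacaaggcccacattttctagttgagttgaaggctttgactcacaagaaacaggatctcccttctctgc
Cd244: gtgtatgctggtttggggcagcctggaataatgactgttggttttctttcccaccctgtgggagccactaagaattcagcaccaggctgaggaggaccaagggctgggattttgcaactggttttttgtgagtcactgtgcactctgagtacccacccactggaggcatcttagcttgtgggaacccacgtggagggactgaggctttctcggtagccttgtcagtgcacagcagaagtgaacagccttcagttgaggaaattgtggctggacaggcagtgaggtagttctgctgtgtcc

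The RUNX letters were present in 3 of the 4 windows, 1 match each in *Gzma*, *Nkg7* and *Klrk1*, and they were present in 16.8% of 32851 promoter windows of the same length and in 15.1% of the 688 windows of panel genes. The T-box letters occurred in *Gzma* and *Nkg7* (13.7% of all windows) and the ETS letters in *Nkg7* (35.4% of all windows). The *Cd244* window held none of the 3, which says only that these letters are not in these 300 bases. No binding was measured, and a match is a description of the sequence.

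The labelled cell type was checked against its markers. *Itgam*, which encodes CD11b, measured 11.42 ± 0.15 in naive mice, 8.85 ± 0.28 in the allo group, 9.22 ± 0.12 with CTLA4-Ig and 9.56 ± 0.29 with CTLA4-Ig/EPO (normalized log2 values, SD, n = 4 each), and 8 of 10 listed myeloid markers were in the table and detected in every mouse. Transcripts of other cells were in the same samples. Of listed markers, 7 of 20 T cell genes and 3 of 10 B cell genes were measured, and among them *Pdcd1* reached the lowest recovered count of 1. In samples of many cells, fewer cells of a type and less RNA per cell cannot be told apart, which applies to every difference that follows.

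*Gzma* differed between mice given CTLA4-Ig with and without EPO, the comparison that isolates EPO. Its normalized log2 values were 12.48, 12.97, 12.36 and 12.60 in CTLA4-Ig mice 1 to 4, and 11.97, 11.78, 11.54 and 11.73 in CTLA4-Ig/EPO mice 1 to 4. All mice with EPO lay below all mice without it, and the groups did not overlap. *Gzma* fell by 0.85 on the log2 scale (standard error 0.19, 95% confidence interval -1.26 to -0.43, limma adjusted *P* value 0.00191), to 0.556 times its level without EPO. In naive mice it measured 12.42, 12.79, 12.68 and 12.18, and in the allo group 11.40, 11.97, 12.22 and 12.15. Allo mouse 1 was the lowest of all 16 mice, and the other 3 allo mice lay within or just below the range of naive mice. The order of the group means was CTLA4-Ig (12.60), naive (12.52), allo (11.94) and CTLA4-Ig/EPO (11.76), and neighbours in this order overlapped in every case.

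*Nkg7* followed the same order of groups. It measured 10.31, 10.78, 10.50 and 10.73 in CTLA4-Ig mice 1 to 4, and 10.07, 9.76, 9.89 and 10.09 in CTLA4-Ig/EPO mice 1 to 4. The groups did not overlap, and all mice with EPO were lower. *Nkg7* fell by 0.63 with EPO (standard error 0.21, 95% confidence interval -1.07 to -0.19, limma adjusted *P* value 0.019), 0.646 times the level without it. Naive mice had 10.29, 10.69, 10.74 and 10.29, and allo mice 9.34, 9.99, 10.47 and 10.23. The allo group was the most spread out, with an SD of 0.49, and reached from the lowest value of any mouse into the range of the naive mice. Group means were 10.58 with CTLA4-Ig, 10.50 in naive mice, 10.01 in the allo group and 9.95 with CTLA4-Ig/EPO, and again each overlapped its neighbour.

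*Klrk1*, the NKG2D receptor, measured 10.82, 11.26, 10.63 and 10.81 in CTLA4-Ig mice 1 to 4 and 10.55, 10.37, 9.97 and 10.18 in CTLA4-Ig/EPO mice 1 to 4. Here too the mice with EPO were all lower, with a narrow gap between CTLA4-Ig/EPO mouse 1 and CTLA4-Ig mouse 3. *Klrk1* fell by 0.61 (standard error 0.20, 95% confidence interval -1.04 to -0.19, limma adjusted *P* value 0.0173), to 0.654 times the level without EPO. Its values were 10.34, 10.82, 10.96 and 10.41 in naive mice and 9.91, 10.62, 10.59 and 10.41 in the allo group. Naive and allo mice overlapped widely, with allo mouse 1 alone below the naive range. The means were 10.88 with CTLA4-Ig, 10.64 in naive mice, 10.38 in the allo group and 10.27 with CTLA4-Ig/EPO, with overlap between all neighbours.

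*Cd244*, the 2B4 receptor, had a different pattern. It measured 9.78, 9.85, 9.74 and 9.75 in CTLA4-Ig mice 1 to 4, and 9.84, 10.01, 9.61 and 9.68 in CTLA4-Ig/EPO mice 1 to 4. The CTLA4-Ig mice lay inside the range of the CTLA4-Ig/EPO mice. The log2 difference was 0.01 (standard error 0.11, 95% confidence interval -0.24 to 0.25, limma adjusted *P* value 0.957), and its sign changed to -0.19 with equal medians and to -0.01 with quantile normalization. In naive mice *Cd244* measured 11.48, 11.11, 11.03 and 11.15, and in the allo group 9.46, 9.72, 9.54 and 9.68. Every naive mouse was above every mouse of the other 3 groups in these values, but not in shares of recovered counts, where naive mice had 0.185% to 0.223% and CTLA4-Ig/EPO mice 0.169% to 0.194%. The means were 11.19 in naive mice, 9.79 with CTLA4-Ig/EPO, 9.78 with CTLA4-Ig and 9.60 in the allo group. The gap from naive to CTLA4-Ig/EPO was without overlap, CTLA4-Ig/EPO and CTLA4-Ig overlapped, and the CTLA4-Ig mice were all just above the allo mice.

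**Figure D1:**
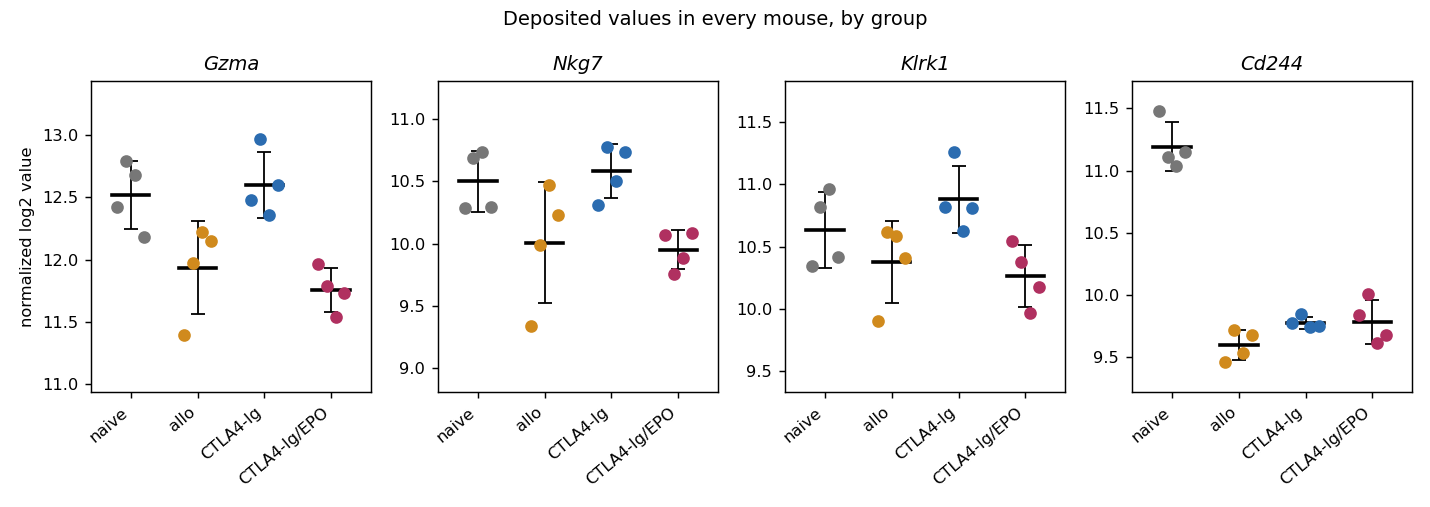
Normalized log2 values of the 4 genes in each of 16 mice, by treatment group, with points for mice, horizontal lines for group means and bars for 1 SD, each panel spanning the same number of log2 units. Gzma, Nkg7 and Klrk1 are lower in all CTLA4-Ig/EPO mice than in all CTLA4-Ig mice, while Cd244 separates naive mice (11.03 to 11.48) from the rest.

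Of the 4 genes, 3 were called lower with EPO at a limma adjusted *P* value below 0.05, against 208 of all 734 genes (28.3%). The same 3 lay without overlap below the CTLA4-Ig mice, against 202 of all genes (27.5%). The median log2 fold change of the 4 genes was -0.62, and that of all genes was -0.07.

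The call for *Gzma* with EPO held in each scaling of the mice that was tried, and those for *Nkg7* and *Klrk1* did not. Between CTLA4-Ig and CTLA4-Ig/EPO the per-mouse medians differed by 0.20 and the per-mouse totals by -0.10 on the log2 scale, so scaling by one or the other moves all genes in opposite directions. The split of calls over all genes moved with it, from 167 higher and 208 lower as deposited to 126 and 276 with equal medians, and to 184 and 146 with equal totals. With equal totals *Nkg7* had a log2 fold change of -0.53 with an adjusted *P* value of 0.111, and *Klrk1* had -0.51 with 0.11. With limma-voom on the recovered counts both had an adjusted *P* value of 0.0544. Limma-voom was also scaled by the totals and differs from equal totals mainly in weighting the values. They are therefore not separate choices of scale, here and in all counts of scalings that follow. No scaling turned the direction of *Gzma*, *Nkg7* or *Klrk1* in this comparison. Single mice mattered as well. The *Nkg7* call was lost without CTLA4-Ig/EPO mouse 2 (adjusted *P* value 0.053), without CTLA4-Ig mouse 2 (0.0517) or without CTLA4-Ig mouse 4 (0.052), and the *Klrk1* call was lost without CTLA4-Ig/EPO mouse 3 or without CTLA4-Ig mouse 2 (0.0579 each). *Gzma* stayed below the threshold in 8 of 8 fits that left out a mouse.

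As a share of all recovered counts, which sets all mice to equal totals and does without the deposited factor, *Gzma* made up 0.977% to 1.47% in CTLA4-Ig mice and 0.643% to 0.844% in CTLA4-Ig/EPO mice. *Nkg7* made up 0.246% to 0.335% without EPO and 0.159% to 0.227% with it. These ranges did not overlap for either gene. For *Klrk1* they met, at 0.295% to 0.448% without EPO and 0.216% to 0.316% with it, because CTLA4-Ig/EPO mouse 1 lay above CTLA4-Ig mouse 3. *Cd244* made up 0.159% to 0.170% without EPO and 0.169% to 0.194% with it.

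CTLA4-Ig was compared with the allo group to see what costimulation blockade alone changed. *Gzma* was 0.67 higher on the log2 scale (95% confidence interval 0.25 to 1.08, limma adjusted *P* value 0.25), *Nkg7* 0.57 higher (0.13 to 1.02, adjusted *P* value 0.495) and *Klrk1* 0.50 higher (0.08 to 0.92, adjusted *P* value 0.523). All 4 CTLA4-Ig mice were above all 4 allo mice for *Gzma* and *Klrk1*, narrowly so for the nearest mice, and for *Nkg7* CTLA4-Ig mouse 1 fell below allo mouse 3. *Cd244* was 0.18 higher (-0.06 to 0.42, adjusted *P* value 0.726), without overlap. Of all 734 genes, 25 were higher without overlap in this comparison (3.41%). None of the 4 genes passed the adjusted threshold, and limma called 0 of 734 genes (0%). At an unadjusted *P* value below 0.05, limma called 70 genes (9.54%), among them *Gzma*, *Nkg7* and *Klrk1*. The methods' t-test called 76 genes unadjusted and 0 after adjustment, and limma-voom called 0. The scalings left the direction of all 4 genes as it was, *Gzma* lying between 0.51 and 0.68 over all settings.

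Mice given CTLA4-Ig/EPO were also set against the allo group. The log2 differences were -0.18 for *Gzma* (95% confidence interval -0.59 to 0.23), -0.06 for *Nkg7* (-0.50 to 0.39), -0.11 for *Klrk1* (-0.54 to 0.31) and 0.19 for *Cd244* (-0.06 to 0.43). Limma called 0 of the 4 genes, with adjusted *P* values from 0.189 to 0.839, where it called 371 of all 734 genes (50.5%). Unadjusted, it also called 0 of the 4, and the intervals leave room for changes of up to about 0.59 on the log2 scale. *Nkg7* turned to 0.05 with equal totals and with limma-voom, and *Cd244* to -0.03 with equal medians. *Cd244* was called higher by 0.30 with equal totals (adjusted *P* value 0.0321) and with limma-voom (0.0289). This comparison and those of CTLA4-Ig/EPO with CTLA4-Ig and of CTLA4-Ig with allo share mice. The low level of *Gzma*, *Nkg7* and *Klrk1* with EPO is thus measured against CTLA4-Ig mice, the group with the highest means of the 4. Against allo mice these genes were not called in any of 12 settings. *Gzma* lay there between -0.39 and -0.07 and *Klrk1* between -0.33 and -0.003.

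Comparisons with naive mice depend on the scaling. As deposited, *Cd244* was 1.59 lower in the allo group than in naive mice (standard error 0.11, limma adjusted *P* value 1.4e-08), and it stayed lower in all scalings, by 0.51 at the least. Cell type markers changed in the same mice. All 8 neutrophil genes were called lower in every scaling (median -4.40 as deposited) and all 3 B cell genes higher (median 1.48), and 8 of 8 myeloid genes were called lower as deposited (median -1.68), with 4 to 6 called lower in the other scalings. All 3 granulocyte progenitor genes were called lower in every scaling (median -2.91 as deposited). Of 9 eosinophil, basophil and mast cell genes, 7 were called lower and 2 higher as deposited (median -1.43). In the other scalings 4 or 5 of these were called lower and 2 higher. The part of all these markers in the change of *Cd244* was not tested. *Gzma* was lower by 0.58 (adjusted *P* value 0.0149) and *Nkg7* by 0.49 (0.0454) as deposited, and both were higher in the allo group, by 0.15 and 0.24, with equal medians, and higher in the other 3 scalings. Limma-voom, which called 339 of all 734 genes higher, reversed both calls, with *Gzma* called higher by 0.50 (adjusted *P* value 0.0338) and *Nkg7* by 0.60 (0.0235). *Klrk1* had -0.26 (adjusted *P* value 0.257) as deposited and was called higher in all 4 other scalings, by 0.48 (0.0441) with equal medians. Of the 4 genes, 3 were called lower as deposited, against 429 of 734 genes (58.4%), and the median of all genes was -0.65. Per-mouse medians were 0.73 lower and per-mouse totals 1.08 lower in the allo group than in naive mice, and the factor behind the deposited values lay between 1.27 and 1.85 in naive mice and between 0.628 and 0.759 in allo mice. The split over all genes was 87 higher and 429 lower as deposited, 242 and 196 with equal medians, and 334 and 132 with equal totals. Equal totals and limma-voom both scale by the totals, of which the neutrophil genes are part. The summed linear level of these genes was 260055 to 764316 in naive mice and 12257 to 35750 in allo mice. Which scaling is right was not tested. Relative to the median of all genes, *Cd244* lay below it and the other 3 genes above it. As deposited the *Gzma* call was lost without allo mouse 1 (adjusted *P* value 0.052), and the *Nkg7* call, which also needed all 4 groups in the fit, was lost without allo mouse 1 (-0.27, 0.161), allo mouse 2 (0.0787), naive mouse 2 (0.107) or naive mouse 3 (0.116).

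CTLA4-Ig/EPO mice were set against naive mice in the same way. As deposited, *Cd244* was lower by 1.41 (limma adjusted *P* value 5.36e-08), *Gzma* by 0.76 (0.00262) and *Nkg7* by 0.55 (0.0271), and *Klrk1* had -0.37 (0.107). Thus 3 of 4 were called lower, against 453 of 734 genes (61.7%), with a median of all genes of -0.74. The calls of *Gzma* and *Nkg7* were lost with equal medians. Both genes turned to higher values with quantile normalization, equal totals and limma-voom, and *Klrk1* did in all 4 other scalings. With equal totals and with limma-voom, *Nkg7* was called higher (adjusted *P* values 0.0436 and 0.0153), as was *Klrk1* (0.00993 and 0.00202), beside 340 and 346 of all 734 genes called higher in these 2 scalings, where 67 were as deposited. *Cd244* kept its direction in all of them, but its call was lost with equal totals and with limma-voom (-0.21, adjusted *P* value 0.101 each). Of the markers, 8 of 8 neutrophil genes were called lower as deposited (median -2.93; 7 or 8 in the other scalings), and in every scaling 8 of 8 red pulp macrophage genes (median 1.77 as deposited) and 3 of 3 B cell genes (0.77) were called higher. Of 8 myeloid genes 5 were called lower and 1 higher as deposited (median -1.02), and 3 lower and 4 higher with equal totals (0.18). Of the T cell genes 1 was called higher and 3 lower as deposited, a split that turned to 5 higher and 0 lower with equal totals. Their part was not tested. The *Nkg7* call was lost without CTLA4-Ig/EPO mouse 2 (0.0706), CTLA4-Ig/EPO mouse 3 (0.0576), naive mouse 2 (0.0703) or naive mouse 3 (0.0765).

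**Figure D2:**
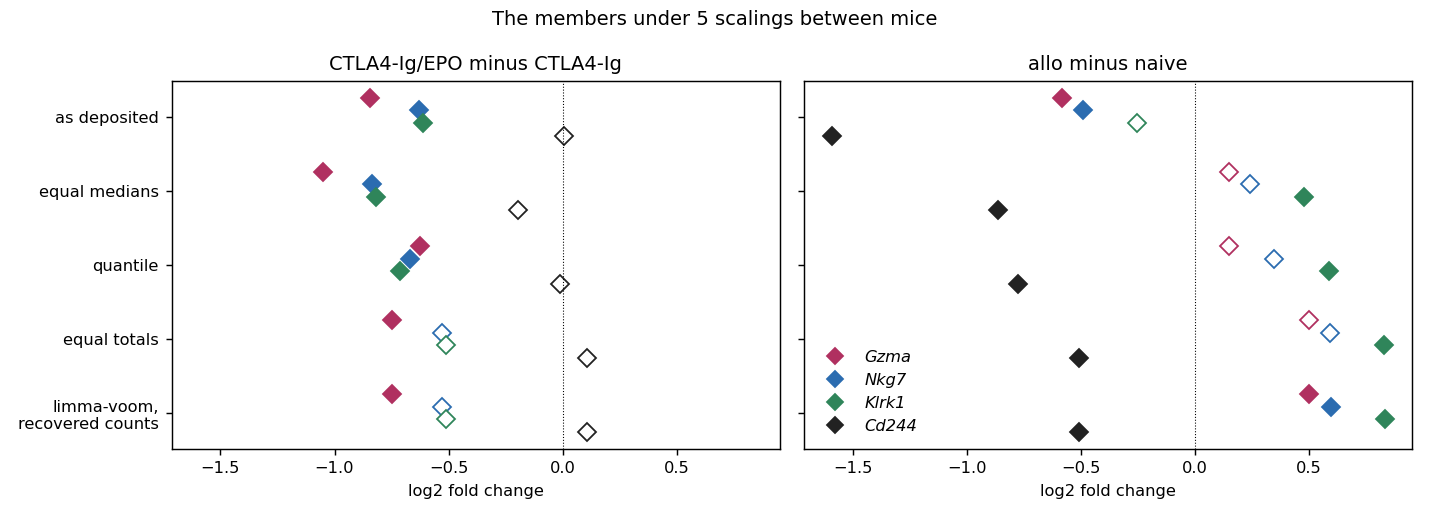
Log2 fold changes of the 4 genes in 2 comparisons under 5 scalings between mice, with filled symbols where the adjusted P value is below 0.05. Equal totals and limma-voom both scale by the totals. With EPO (left), Gzma, Nkg7 and Klrk1 stay below 0 and Cd244 lies on either side of it, while in the allo group against naive mice (right) the first 3 genes cross 0 and Cd244 stays below it.

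The difference between *Cd244* and the other 3 genes could be taken within each mouse, where any factor between mice cancels. It has no meaning as a level, since each probe has its own efficiency, and only its change between groups is used. With EPO, *Gzma* minus *Cd244* went from between 2.62 and 3.13 to between 1.78 and 2.12, a change of -0.85. *Nkg7* minus *Cd244* changed by -0.64 and *Klrk1* minus *Cd244* by -0.62. From naive to allo mice the same differences changed the other way, by 1.01 for *Gzma*, 1.10 for *Nkg7* and 1.34 for *Klrk1*. In all 6 cases the mice of the groups did not overlap. The same held for 200 of all 733 differences from *Cd244* that were lower with EPO (27.3%) and for 421 that were higher in allo than in naive mice (57.4%). Because *Cd244* was made the reference after its divergence had been seen, these differences restate that divergence without the scaling and are given without a test.

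Similarity of profiles was measured by setting each gene to its own mean over the 16 mice and taking the root mean square difference between genes on the log2 scale, where 0 is an identical profile. Among the nearest of 733 other genes were *Nkg7* (0.16) and *Serpinb9* (0.17) for *Gzma*, and *Gzma* (0.16) and *Serpinb9* (0.18) for *Nkg7*. For *Klrk1* they included *Gzma* (0.19) and *Fyn* (0.20). The median over all other genes was 0.66 for *Gzma*, 0.66 for *Nkg7* and 0.65 for *Klrk1*. *Klrk1* was at rank 4 from *Gzma* and from *Nkg7*. *Serpinb9* encodes an inhibitor of granzyme B, and *Fyn* a Src family kinase of lymphocyte receptor signaling. *Cd244* was about as distant as the median gene, at rank 313 of 733 from *Gzma* (0.60), 337 from *Nkg7* (0.63) and 397 from *Klrk1* (0.68). Its own nearest genes were *Selplg* (0.11), which encodes the selectin ligand PSGL-1, *Cd84* (0.14), another SLAM family receptor, and *Il17ra* (0.16), a subunit of the IL-17 receptor.

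The nearest genes were chosen from the same 16 mice, so their changes are a description. *Serpinb9* had a log2 fold change with EPO of -0.88, beside -0.85 for *Gzma*. *Selplg* had -0.14, *Cd84* 0.04 and *Il17ra* -0.18, beside 0.01 for *Cd244*. With equal medians *Selplg* had -0.34 (limma adjusted *P* value 0.00374) and *Il17ra* -0.38 (0.00591), both called lower, and *Cd84* had -0.17, beside -0.19 for *Cd244*. Within groups the genes also shared single mice. Allo mouse 1 was the lowest of the allo group for *Gzma*, *Nkg7*, *Klrk1* and *Cd244*, in the deposited values and in shares of counts. CTLA4-Ig mouse 2 was the highest of its group for all 4 as deposited, and by share only for *Gzma* and *Klrk1*. In naive mice, mouse 1 was lowest for *Nkg7* and *Klrk1* and highest for *Cd244* as deposited, and by share it was lowest for all 4.

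**Figure D3:**
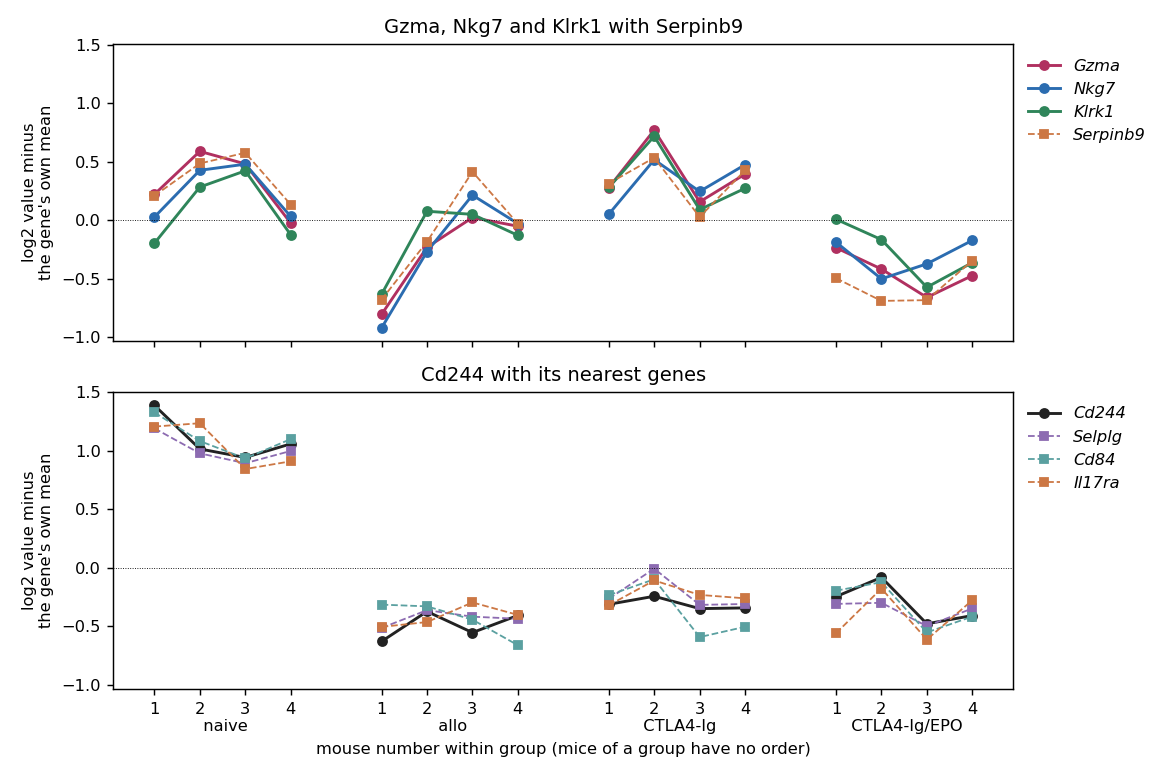
Profiles of Gzma, Nkg7 and Klrk1 with Serpinb9 (top) and of Cd244 with its nearest genes (bottom) over 16 mice, as log2 value minus the mean of the gene, with lines joining mice of a group for easier reading. In the top panel the CTLA4-Ig/EPO mice lie below the CTLA4-Ig mice; in the bottom panel naive mice lie above all others.

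Other genes of the cytotoxic program were taken from lists of known markers. Of 28 cytotoxic and NK cell genes, 3 were in the table and 25, among them *Prf1*, *Gzmb* and *Ncr1*, were not analysed here, so that markers defining NK cells were not available to set beside *Gzma*, *Nkg7* and *Klrk1*. With EPO, *Ifng*, the cytokine interferon γ, fell by 1.17 (limma adjusted *P* value 0.000269) and *Ccl5*, a chemokine of cytotoxic cells, by 0.79 (0.00104), while *Tnfsf10*, the death ligand TRAIL, had -0.26 (0.221). The first 2 calls held in the 4 other scalings, and *Tnfsf10* was called lower with equal medians (-0.46) and quantile normalization (-0.51). The median of the list was -0.79, beside -0.07 over all genes. Summed on the linear scale, the 3 genes came to between 9265 and 12024 in CTLA4-Ig mice and between 4981 and 7041 in CTLA4-Ig/EPO mice, most of it *Ccl5*. Against the allo group the values with EPO were -0.78 for *Ifng* (adjusted *P* value 0.00622) and -0.65 for *Ccl5* (0.00458, and 0.0635 with equal totals), beside -0.18 for *Gzma*.

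Partners of the NKG2D and 2B4 receptors were represented by 4 of 22 listed genes, of which 1 was called higher and 2 lower with EPO, beside 167 higher and 208 lower of all 734 genes. *Tyrobp*, the adaptor DAP12 that mouse NKG2D can use and that is abundant in myeloid cells, rose by 0.35 (limma adjusted *P* value 0.0142). With equal medians it had 0.15 and was not called. *Fyn* fell by 0.36 (0.0178) and *Vav1*, an exchange factor downstream of both receptors, by 0.20 (0.0245). Neither was called with equal totals or limma-voom, and *Vav1* was not called with quantile normalization. The kinase *Syk* had -0.20 (0.147), and the call was made with equal medians (-0.40). The median of the list was -0.20. Of 8 SLAM family genes *Cd84* alone was measured. Like *Cd244* it was lower in the allo group than in naive mice, by 1.55 as deposited (adjusted *P* value 1.37e-07) and in every scaling.

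Of 18 cytokines and receptors that act on cytotoxic lymphocytes, 12 were in the table, and with EPO 4 were called higher and 4 lower, beside 167 and 208 of all 734 genes. *Il18* rose by 1.93 and *Il27*, which was close to the floor with a lowest recovered count of 3, by 1.19, while *Il21r* fell by 0.96 and *Il12a* by 0.90. *Il18r1*, the highest of the list when averaged over all 16 mice and a receptor chain carried by NK cells, fell by 0.67 (limma adjusted *P* value 0.0164), a call lost with equal totals. The list median was -0.08 and turned to 0.02 with equal totals, and above 0 with limma-voom. Among the genes near *Gzma*, *Il18r1* was at rank 5, with a root mean square difference of 0.22.

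Lymphocyte markers moved in the same comparison as *Gzma*, *Nkg7* and *Klrk1*. With EPO 6 of 7 measured T cell genes were called lower and 0 higher in all scalings, where between 146 and 276 of all 734 genes were called lower, led by *Ctla4* (-2.04), *Cd28* (-1.97), *Cd40lg* (-1.88) and *Cd247* (-1.27), with a list median of -1.27. Their summed linear level was 1430 to 1540 in CTLA4-Ig mice and 432 to 668 in CTLA4-Ig/EPO mice, with *Cd28* the highest when averaged over all 16 mice. All 3 B cell genes were called lower, *Cxcr5* by 1.08, *Fcer2a* by 0.97 and *Ms4a1*, the most abundant, by 0.76, and their sum went from between 2836 and 3320 to between 1430 and 2071. The part of lymphocyte content in the fall of *Gzma*, *Nkg7* and *Klrk1* was not tested. In the allo group 7 of 7 T cell genes were called higher than in naive mice in every scaling, where between 87 and 339 of all 734 genes were. Their median was 1.41 as deposited, beside -0.58 for *Gzma* as deposited and 0.15 to 0.50 in the other scalings. Against the allo group 7 of 7 were called lower with EPO in every scaling, where 203 of all 734 genes were as deposited and 280 with equal medians. Their median was -1.47 as deposited. *Gzma*, *Nkg7* and *Klrk1* had values from -0.18 to -0.06 as deposited, of which *Nkg7* turned to 0.05 with equal totals.

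Markers of myeloid cells moved the other way with EPO. Of 8 measured myeloid genes 6 were called higher, beside 167 of all 734 genes (126 to 189 over the scalings), with *Fcgr3* (1.55), *Cd68* (1.36), *Adgre1* (1.27) and *Csf1r* (1.16) in the lead and a list median of 0.82. Their summed linear level, with *Tyrobp* the most abundant, was 10276 to 12460 in CTLA4-Ig mice and 16868 to 18898 in CTLA4-Ig/EPO mice, and *Itgam* itself had 0.33 (limma adjusted *P* value 0.0881), called with quantile normalization (0.40), equal totals (0.43) and limma-voom (0.43). All 8 red pulp macrophage genes were called higher, led by *Mertk* (2.17) and *C1qa* (2.01), with *Vcam1* (1.72) the most abundant. Also called higher were 4 of 8 neutrophil genes (*Camp* 1.94, and *S100a9*, the most abundant, 1.65; 6 of 8 with equal totals and 7 of 8 with limma-voom), all 3 granulocyte progenitor genes (*Ctsg* 3.12, *Mpo* 2.88, *Elane* 2.54) and all 3 proliferation genes (*Birc5* 1.88, *Ccnb2* 1.54, *Top2a* 1.18). Of 6 dendritic cell genes *Xcr1* (0.69) was called higher and *Itgax* (-0.93) and *Flt3* (-0.85) lower, and *Irf8*, *Clec9a* and *Batf3* were not called. The *Xcr1* call was lost with equal medians (0.49) and quantile normalization (0.38). *Irf8* (-0.46) was lower with EPO without overlap, but its standard error was 1.44 and its lowest recovered count over all mice was 1. Of 9 genes of eosinophils, basophils and mast cells, cells that can carry 2B4, 6 were called higher, led by *Prg2* (3.92), *Epx* (3.00) and *Ccr3* (2.72), and 2 lower, while *Cd244* had 0.01. The share of these changes in the values of *Cd244* was not tested.

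**Figure D4:**
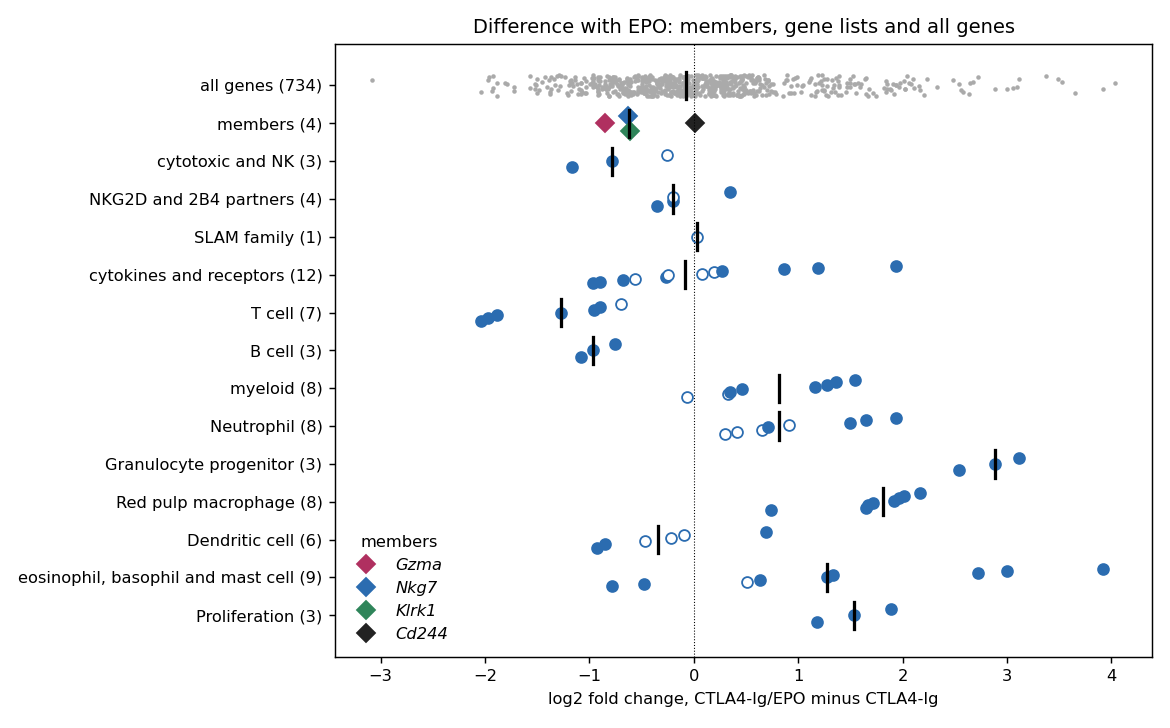
Log2 fold change of CTLA4-Ig/EPO minus CTLA4-Ig for all genes (grey), the 4 genes (diamonds) and the measured genes of each list (circles, filled where the adjusted P value is below 0.05, numbers of genes in parentheses), with vertical lines for medians. Gzma, Nkg7 and Klrk1 lie on the side of the T cell and B cell genes, and Cd244 lies at 0.01, near the median of all genes.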

How the data were processed

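Splenic CD11b+ cells of 16 mice were profiled with the NanoString nCounter Myeloid Innate Immunity panel. Normalization was done by the authors with limma, from raw counts, and the deposited table holds 734 genes in log2 units. Each mouse has its own column, without pooling. Within a mouse the deposited log2 values are whole counts multiplied by the same factor (100% of values whole to within 0.001, with the lowest value of a mouse taken as 1). The basis of that factor, background subtraction and reference genes are not given in the sources used here. A factor that differs between groups shifts all genes of a group together.

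The members and all gene lists were chosen with earlier results of these data known. All genes and all 16 mice were fitted with limma 3.58.1 in R 4.3.3, as 4 group means with 5 contrasts, two-sided tests, no filter, and Benjamini-Hochberg adjustment over all genes at a threshold of 0.05. The fit of the comparison with EPO was tried on simulated data with independent noise for each gene. These data held no factor between mice, so that trial does not bear on the scaling. Named are the 4 genes, for each list up to 4 called genes with the largest change with EPO, its most abundant gene and all genes of lists with 6 or fewer in the table, and for each of the 4 genes some of the 3 nearest profiles; *Il18r1* as a neighbour of *Gzma* was named after its values were seen. Symbols were matched to RefSeq (724 by current symbol, 9 by synonym, 1 unmatched).

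No pair of mice in a group agreed within sampling noise (chi-square per degree of freedom at least 5.10). Mice of the same number given CTLA4-Ig with and without EPO had weakly correlated deviations (correlation over genes 0.143 to 0.183 in 4 pairs). Between CTLA4-Ig and allo mice the correlations were 0.016 to 0.293. Mice of different numbers were not compared in this way, so these values do not establish a pairing. The main fit used none, and a replicate block by mouse number was tried as an alternative. Alternatives were unadjusted *P* values, only the 2 groups compared, trended and robust moderation, equal medians, quantile normalization, equal totals, limma-voom on recovered counts, removal of the lowest 25% of genes, the replicate block, the methods' t-test and leaving out each mouse. The methods name that test for comparisons of 2 groups in general and limma for these data. Limma-voom used the totals of the recovered counts as its scale, as equal totals did. Chosen after the data had been seen was the difference from *Cd244* within each mouse. Descriptions and plots used scipy 1.17.1, numpy 2.4.6, matplotlib 3.10.9 and pandas 2.3.3 in Python 3.11.15.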

Additional observations from a re-analysis of the deposited data

How the results depend on the processing

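Over 12 settings the fall of *Gzma* with EPO was called each time, between -1.05 and -0.62 on the log2 scale, and without single mice it lay between -0.93 and -0.72. *Nkg7* and *Klrk1* with EPO were called in 10 of 12 settings each. Their calls were lost with equal totals (-0.53 and -0.51) and with limma-voom (-0.53 and -0.51), and without single mice the values lay between -0.72 and -0.57 and between -0.71 and -0.49. For *Cd244* with EPO, equal medians gave -0.19 and quantile normalization -0.010, and values without single mice lay between -0.066 and 0.066. The number of genes called for CTLA4-Ig minus allo, 0, went to 70 without adjustment, to 76 with the unadjusted methods' t-test and to between 0 and 1 without single mice.

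For CTLA4-Ig minus allo, the calls of *Gzma* (0.67), *Nkg7* (0.57) and *Klrk1* (0.50) without adjustment come from the threshold. The unadjusted methods' t-test called *Gzma* (0.67) and also *Cd244* (0.18), which unadjusted limma did not call. Without single mice *Nkg7* lay between 0.35 and 0.73, *Gzma* between 0.49 and 0.76, *Klrk1* between 0.34 and 0.58 and *Cd244* between 0.13 and 0.22. For CTLA4-Ig/EPO minus allo, *Nkg7* was 0.054 with equal totals and 0.053 with limma-voom. It lay between -0.28 and 0.10 without single mice, above 0 without CTLA4-Ig/EPO mouse 2, allo mouse 3 or allo mouse 4. *Cd244* was -0.026 with equal medians, and called at 0.30 with equal totals and with limma-voom. Without single mice *Gzma* lay between -0.36 and -0.08 and *Klrk1* between -0.27 and -0.01.

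For allo minus naive, equal medians, quantile normalization, equal totals and limma-voom gave 0.15, 0.15, 0.50 and 0.50 for *Gzma*, 0.24, 0.35, 0.59 and 0.60 for *Nkg7*, and 0.48, 0.59, 0.83 and 0.83 for *Klrk1*. The methods' t-test with adjustment lost *Gzma* (-0.58, adjusted P value 0.0694). *Nkg7* (-0.49) was lost in a fit of the 2 groups alone, with the methods' t-test with or without adjustment, and with the replicate block in a fit of the 2 groups (-0.49, adjusted P value 0.0618). Values without single mice lay between -0.70 and -0.40 for *Gzma*, between -0.65 and -0.27 for *Nkg7* and between -0.35 and -0.10 for *Klrk1*. For CTLA4-Ig/EPO minus naive, the same 4 scalings gave -0.24, 0.035, 0.43 and 0.43 for *Gzma*, -0.032, 0.26, 0.65 and 0.65 for *Nkg7*, and 0.15, 0.44, 0.83 and 0.83 for *Klrk1*. *Cd244* was -0.21 with equal totals and with limma-voom, and *Nkg7* lay between -0.62 and -0.47 without single mice. For allo minus naive, *Nkg7* was not called in the fit of the 2 groups, with or without the replicate block. No other call of the 4 genes differed with the block. With EPO, 375 of all genes were called in the fit of all 4 groups and 400 with the block in a fit of the 2 groups. Because 2 choices changed at once, this difference was not assigned to the block.

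The differences from *Cd244*, chosen after the data had been seen, kept their signs without single mice. With EPO they lay between -0.92 and -0.75 for *Gzma*, -0.73 and -0.50 for *Nkg7* and -0.70 and -0.52 for *Klrk1*, and from naive to allo between 0.88 and 1.14, 0.92 and 1.28, and 1.14 and 1.50.

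The cause of the changes with scaling was not tested. Limits are 4 mice in a group, an unstated factor between mice and a table without 25 of 28 listed cytotoxic and NK cell genes. The directions of *Gzma*, *Nkg7* and *Klrk1* against naive mice turned with the scaling and are uncertain.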
